A study of Homo sapiens with 8 samples.

Results

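Binding of HIF-1β near the collagen hydroxylases and lysyl oxidases was described in 9 genes, P4HA1, P4HA2, P4HA3, PLOD1, PLOD2, PLOD3, LOX, LOXL1 and LOXL2, out of 20162 protein-coding genes. The genes are enzymes that modify or cross-link collagen, and the set was drawn up with earlier results of these data known, so its counts are a description. The related LOXL3 and LOXL4 stood in a separate list of further collagen-modifying genes and had no site in any line. For each gene, every deposited peak that met the gene body extended by 25 kb on each side was taken. The peaks came from chromatin immunoprecipitation and sequencing (ChIP-seq) of HIF-1β in 4 human cancer cell lines, with 2 libraries a line. PC-3 is a line of prostate cancer, T47D of oestrogen receptor positive breast cancer, A549 of lung cancer and HCT-116 of colorectal carcinoma. The cells of all 8 libraries had been held in 0.5% oxygen for 16 h, so no library of cells in normal oxygen and no control immunoprecipitation entered the comparisons.

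HIF is the transcription factor that responds to low oxygen, a dimer of an α subunit, which is destroyed when oxygen is plentiful, and the stable HIF-1β subunit. It binds DNA at hypoxia response elements, whose core is ACGTG or GCGTG. Only HIF-1β was immunoprecipitated in these libraries, so its partner at a site was not determined. Newly made collagen chains are hydroxylated on proline by the prolyl 4-hydroxylases, each made of an α subunit (P4HA1, P4HA2 or P4HA3) and the shared β subunit P4HB, and these hydroxyl groups stabilise the collagen triple helix. The lysyl hydroxylases PLOD1, PLOD2 and PLOD3 hydroxylate lysine, with PLOD2 acting on the telopeptides, the short chain ends where cross-links form, and PLOD3 also transferring sugars. Both families use molecular oxygen, iron and 2-oxoglutarate. The lysyl oxidases LOX, LOXL1 and LOXL2 are copper-dependent enzymes that act outside the cell and oxidise lysine so that collagen and elastin fibres become cross-linked.

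A binding site was defined in each line as a region with peaks in both replicates that shared 1 bp or more. The 8 lists held 1042 to 3790 peaks each, with the smallest list in PC-3 replicate 1 (1042, against 2891 in PC-3 replicate 2). On the autosomes, X and Y they gave 970 sites in PC-3, 2062 in T47D, 1041 in A549 and 1756 in HCT-116. With all other sequences counted too, T47D had 2065 sites and HCT-116 had 1757. Each peak carried a score with a floor near 50 in every list. Scores had no common scale between libraries, so each peak was also given its rank from the top of its own list and a percent rank, in which 100 is the highest score of the list. The number of reads behind a peak was not in the lists, so depth is unknown. Nothing in the labels said that the 2 replicates of a line came from separate cultures, so differences between them may be technical. With peak lists alone, the identity of the lines could not be checked against marker genes.

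The reference sequence under the sites is shown first, for the sites the results turn on. All stretches were read from GRCh37 (hg19) on the strand of the gene, and capitals mark ACGTG or GCGTG on that strand or, written as CACGT or CACGC, on the opposite strand. CACGTG holds ACGTG on both strands and counted as 2 copies. The longer stretches, which meet no annotated exon, cover 200 bases of the P4HA2 site just before its start (chr5:131563599-131563798, minus strand) and of the site shared by all lines upstream of PLOD1 (chr1:11989951-11990150, plus strand).
P4HA2 promoter: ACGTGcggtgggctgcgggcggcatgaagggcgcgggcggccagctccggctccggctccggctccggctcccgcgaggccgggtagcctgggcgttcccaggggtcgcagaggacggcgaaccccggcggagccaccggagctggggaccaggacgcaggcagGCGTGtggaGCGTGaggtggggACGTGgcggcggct
PLOD1 upstream site: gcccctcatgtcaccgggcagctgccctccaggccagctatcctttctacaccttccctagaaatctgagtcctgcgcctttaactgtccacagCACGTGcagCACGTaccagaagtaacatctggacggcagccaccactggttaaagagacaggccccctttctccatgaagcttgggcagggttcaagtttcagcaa
The P4HA2 stretch held 4 copies of the motif and the PLOD1 stretch held 3 copies, of which one CACGTG gave a pair.

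Stretches of 30 bases are given for the other sites of the hydroxylases, to show the motif nearest to where the peaks overlapped, and for the site within LOXL1. They lie at chr10:74856694-74856723 (minus strand) for P4HA1, at chr3:145879101-145879130 and chr3:145879161-145879190 (minus strand) for PLOD2, at chr7:100861350-100861379 (minus strand) for PLOD3 and at chr15:74226815-74226844 (plus strand) for LOXL1.
P4HA1: gtgtgatcgagctCACGTagcgagggctgc
PLOD2 a: gcaaacagtccagACGTGgggcccaggagg
PLOD2 b: agcgctGCGTGagcctccaCACGTagccgc
PLOD3: GCGTGcgccacagctttgactcattACGTG
LOXL1 intron: tgcacctgggagACGTGcaccagaagctga
The P4HA1 stretch thus held 1 copy of ACGTG, about 84 bp before the start of the transcript marked as canonical. The whole P4HA1 site held 7 copies in PC-3 and 4 in each other line. Both PLOD2 stretches together held 3 copies, all upstream of the start of its canonical transcript. The P4HA1 and PLOD2 stretches met an annotated exon. The PLOD3 stretch held 1 GCGTG and 1 ACGTG at its ends.

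Every site of these genes held the motif at least once, as did nearly all sites of the lines. Counting each line separately, 29 of 29 sites held a copy, for which an exact binomial interval (Clopper-Pearson, 95%, counting error only, with sites of different lines often at the same place) reached down to 88.06%. Over all sites, the share with a copy was 98.35% in PC-3, 96.31% in T47D, 96.25% in A549 and 99.03% in HCT-116, so this share did not set the 9 genes apart. Within the central 200 bp, 23 of the 29 sites held a copy. By line these were 7 of 7 in PC-3, 3 of 6 in T47D, 7 of 8 in A549 and 6 of 8 in HCT-116. The share over all sites was 73.61% in PC-3, 64.26% in T47D, 71.09% in A549 and 73.01% in HCT-116. As a background of the same length, 9140 of 20162 stretches of 200 bases before the start of a protein-coding gene held the motif (45.33%). Only 18 of the 29 sites had their midpoint within 2 kb of the start of their gene. For the rest, this background is therefore another kind of sequence. A match of letters is a description of the sequence and does not mark the bound base.

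Of the 9 genes, 8 had a site in at least 1 line and 4 had a site in all 4 lines (P4HA1, P4HA2, PLOD1 and PLOD2). P4HA3 had no peak in any library. A site was present at 6 of 9 genes in PC-3, where 7.07% of all protein-coding genes had one by the same rule, and at 6 of 9 in T47D, where 16.0% had one. It was present at 6 of 9 genes in A549 against 6.01% of all genes, and at 7 of 9 in HCT-116 against 14.2%. For all 4 lines together the count was 4 of 9, against 2.46% of all genes, and for at least 1 line it was 8 of 9, against 24.4%. The median length of the 9 genes was 75840 bp against 27220 bp over all genes, with 6 of the 9 above that value, and a longer gene has a wider window.

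**Figure D1:**
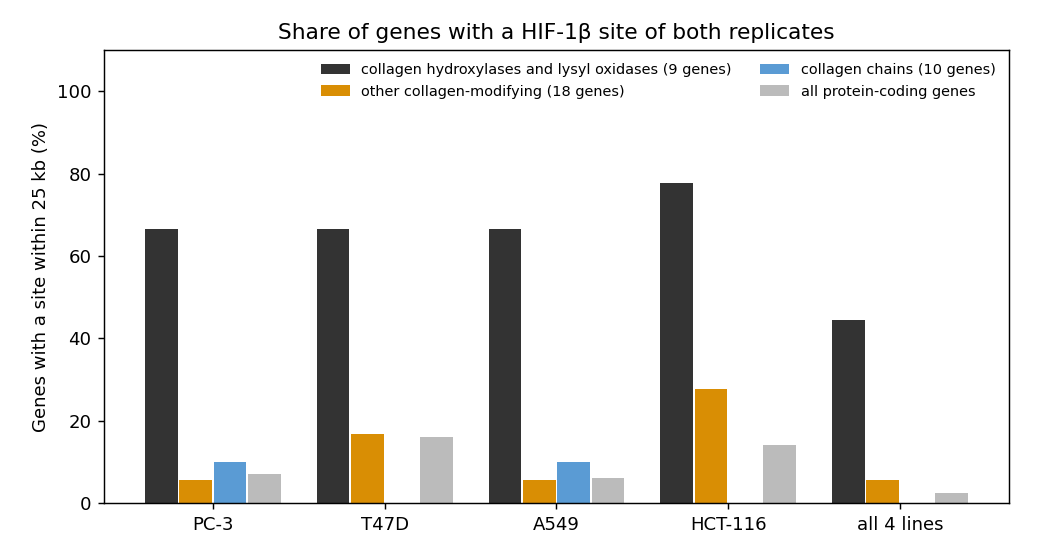
Percent of genes with a HIF-1β site of both replicates within 25 kb of the gene body (vertical axis) in each line and in all 4 lines, for the 9 collagen hydroxylases and lysyl oxidases (black), 18 other collagen-modifying genes (orange), 10 collagen chains (blue) and all 20162 protein-coding genes (grey). The black bars stand at 66.7% in PC-3, T47D and A549, at 77.8% in HCT-116 and at 44.4% for all 4 lines, where the grey bar stands at 2.46%.

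When the search was limited to 2 kb up- or downstream of the transcription start, where gene length plays no part, 3 of the 9 genes had a site in PC-3 (1.97% of all genes), 5 in T47D (6.65%), 4 in A549 (1.46%) and 6 in HCT-116 (5.75%). The genes with such a site in all 4 lines were P4HA1, P4HA2 and PLOD2, which is 3 of 9 against 0.828% of all genes. P4HA1 and PLOD2 had a peak in the higher-scoring 10% of each of the 8 lists, which 0.347% of all genes had. In all, 66 peaks in 17 regions fell near the 9 genes, 13 of the regions were a site in at least 1 line and 4 of the regions were a peak in only 1 library. Of the 29 sites, 18 had their midpoint within 2 kb of the canonical start, the first base of the transcript that the annotation marks as canonical. In a site the replicates shared 59.15% to 97.67% of the longer peak, with a median of 85.61%.

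**Figure D2:**
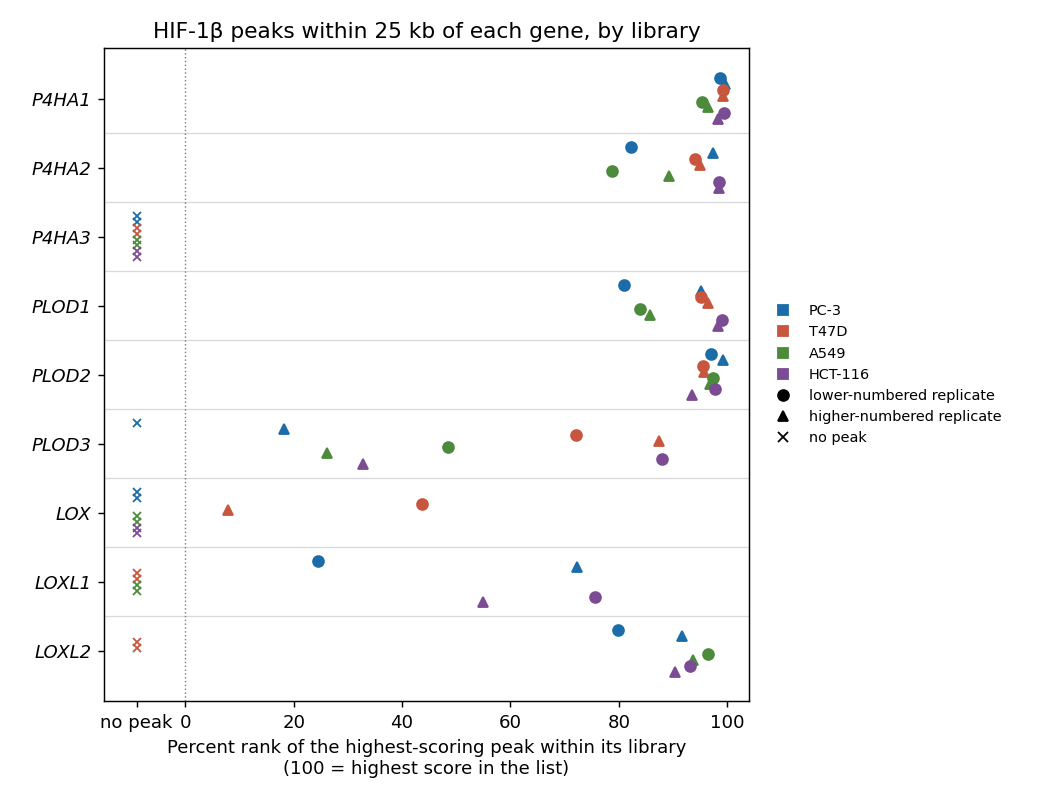
Percent rank of the highest-scoring HIF-1β peak within 25 kb of each gene (horizontal axis, 100 is the highest score of the list) in each library, with colours for lines, circles for the lower-numbered and triangles for the higher-numbered replicate, and crosses for no peak. All 8 points of P4HA1 and of PLOD2 lie above 90, those of P4HA2 and PLOD1 spread from 78.73 to 99.13, and the lysyl oxidases and PLOD3 lack a peak in at least 1 library.

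Among the prolyl 4-hydroxylase α subunits, P4HA1 is the main α subunit in most cells. It had the highest-ranking peak in every library but HCT-116 replicate 3, where P4HA2 was at rank 31 and P4HA1 at rank 32. The P4HA1 gene lies at chr10:74766975-74856732 on the minus strand, and its single region, at the canonical start (74856624), was a peak in all 8 libraries. The midpoint of the site was 152 bp upstream of the start in PC-3, 23 bp in T47D, 112 bp in A549 and 37 bp in HCT-116. The scores were 1089.19 and 2534.68 in PC-3 replicates 1 and 2, at ranks 14 of 1042 and 10 of 2891. They were 1454.58 and 1807.49 in T47D replicates 1 and 2, at ranks 26 of 3061 and 21 of 2910. In A549 replicates 2 and 3 they were 679.21 and 686.8, at ranks 84 of 1768 and 45 of 1270, and in HCT-116 replicates 2 and 3 they were 2539.48 and 1241.79, at ranks 22 of 3790 and 32 of 1913. All 8 peaks were thus in the top 5% of their lists, and the 2 A549 libraries were the lowest, at percent ranks of 95.31 and 96.54 against 98.38 to 99.69 in the others. The PC-3 peaks at P4HA1 were also wide, at 2316 bp and 3847 bp, where the 6 other peaks were 1230 bp to 1508 bp.

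P4HA2, the α subunit that prevails in cartilage and some other tissues, likewise had a site at its canonical start (131563546, minus strand, gene at chr5:131525840-131631008) in all 4 lines, with its midpoint 125 bp to 226 bp upstream. In PC-3 the scores were 205.22 and 864.73, at ranks 186 of 1042 and 78 of 2891, and in T47D they were 379.41 and 530.6, at ranks 184 of 3061 and 149 of 2910. In A549 they were 218.3 and 336.22, at ranks 377 of 1768 and 138 of 1270. In HCT-116 they were 1653.66 and 1252.56, at ranks 56 of 3790 and 31 of 1913. HCT-116 was highest in both replicates, and the replicates of PC-3, at percent ranks of 82.25 and 97.34, lay further apart than those of any other line. A further PC-3 site at chr5:131600880-131602041 scored 94.2 and 148.37, lay 37914 bp upstream of the canonical start, and had as its nearest start that of PDLIM4, at 8071 bp. This second site fell within the annotated gene span because of longer transcripts and lay outside the canonical transcript.

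P4HA3, the remaining α subunit (chr11:73946846-74022685, minus strand), had no peak within 25 kb in any of the 8 libraries. The nearest site was 63544 bp from the gene body in PC-3, 63581 bp in T47D and 63667 bp in HCT-116. In A549 the nearest site was 360906 bp away, although replicate 2 alone had a peak at 63752 bp. A gene with no peak above the score floor cannot be told apart from one bound too weakly to be called.

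Among the lysyl hydroxylases, PLOD2, the telopeptide enzyme, had a site at its canonical start (145878971, minus strand, gene at chr3:145752926-145881512) in all 4 lines, with its midpoint 34 bp to 163 bp upstream. The scores in PC-3 were 726.27 and 1784.8, at ranks 32 of 1042 and 25 of 2891. In T47D they were 471.9 and 589.31, at ranks 136 of 3061 and 127 of 2910, and in A549 they were 878.36 and 765.64, at ranks 47 of 1768 and 41 of 1270. In HCT-116 they were 1101.98 and 465.89, at ranks 86 of 3790 and 126 of 1913. The lines overlapped closely, with means of the 2 percent ranks between 95.61 in HCT-116 and 98.1 in PC-3, and no other protein-coding start was nearer than PLSCR4, at 89887 bp.

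PLOD1, whose loss causes a form of Ehlers-Danlos syndrome, also had a site in all 4 lines, but not at its start. The site lay 4689 bp to 4812 bp upstream of the canonical start (11994774, plus strand, gene at chr1:11994262-12035595), and the nearest start was that of KIAA2013, at 3535 bp from the midpoint of the region. The site cannot therefore be assigned to PLOD1 by position. Its scores were 190.95 and 570.32 in PC-3, at ranks 200 of 1042 and 138 of 2891, and 428.28 and 724.08 in T47D, at ranks 150 of 3061 and 103 of 2910. They were 273.67 and 280.42 in A549, at ranks 286 of 1768 and 181 of 1270, and 2164.84 and 1209.63 in HCT-116, at rank 34 in both lists. HCT-116 was highest in both replicates and the PC-3 replicates lay apart, at percent ranks of 80.9 and 95.26, as at P4HA2.

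PLOD3, the lysyl hydroxylase that also transfers glucose, had weaker peaks, in a region between its start (100860862, minus strand, gene at chr7:100849258-100861701) and that of ZNHIT1, which runs the other way. The midpoint of the region was 252 bp from the canonical PLOD3 start and 332 bp from the ZNHIT1 start, so binding here cannot be assigned to either gene by position. In T47D the scores were 126.77 and 258.11, at percent ranks of 72.07 and 87.39. In A549 they were 90.02 and 64.69, at percent ranks of 48.42 and 26.22, and in HCT-116 they were 315.03 and 71.26, at percent ranks of 88.07 and 32.83. PC-3 had no site, since only replicate 2 had a peak, at a score of 59.1. The HCT-116 replicates differed by 55.25 points of percent rank, the largest gap between replicates at any site of the 9 genes.

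**Figure D3:**
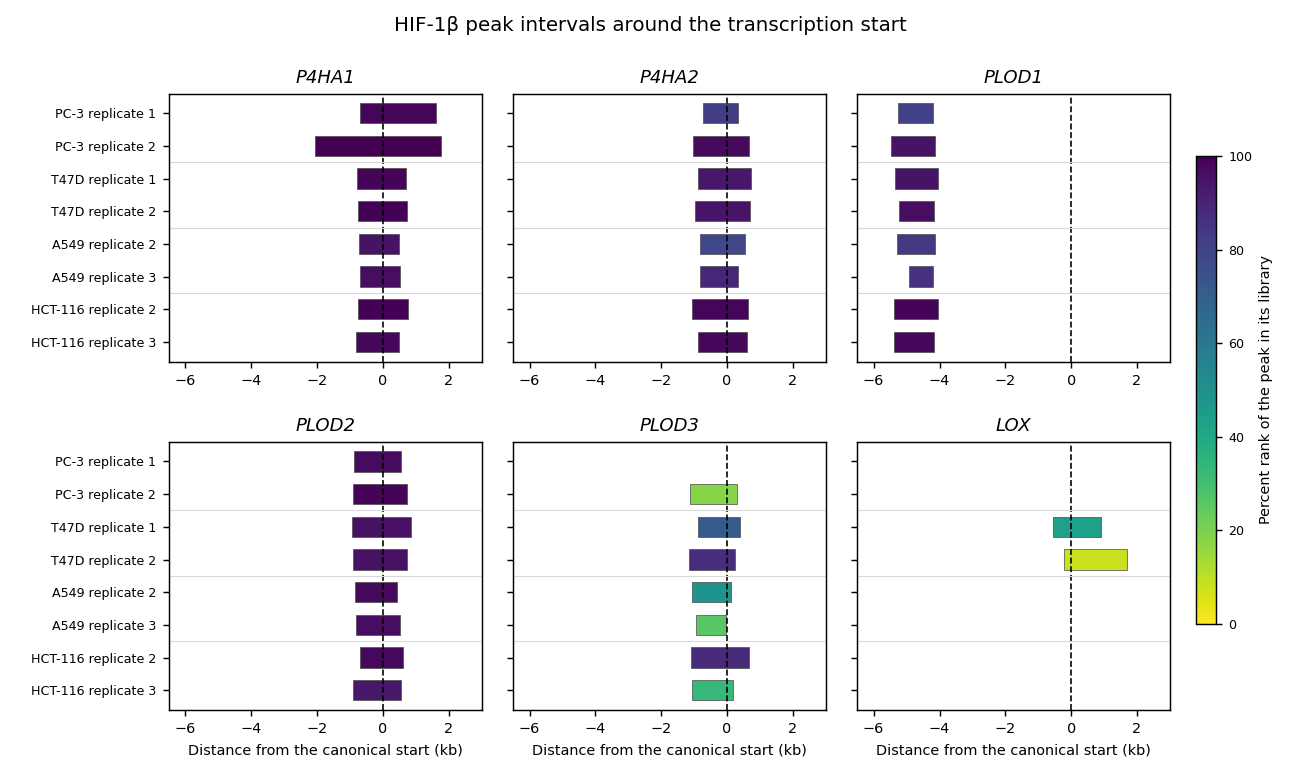
Peak intervals of each library (rows) by distance from the canonical start in kb (horizontal axis, negative values upstream, dashed line at the start) for P4HA1, P4HA2, PLOD1, PLOD2, PLOD3 and LOX, coloured by percent rank in the library. Peaks of all 8 libraries cross the start of P4HA1, P4HA2 and PLOD2, those of PLOD1 all lie more than 4 kb upstream, 7 libraries have a peak by PLOD3, and LOX has peaks in T47D only.

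Whether a line differed in rank beyond its replicates was tested for the genes with a peak in all 8 libraries. For each gene an exact permutation test, one-sided, set the summed squared differences between replicates of a line against all the ways of dividing the 8 libraries into 4 pairs, for which the smallest possible p is 0.0095. The mean percent ranks of P4HA1 were 99.22 in PC-3, 99.25 in T47D, 95.92 in A549 and 98.91 in HCT-116 (p = 0.12, exact permutation test, adjusted p = 0.23). Those of P4HA2 were 89.79, 94.47, 83.97 and 98.49 in the same order (p = 0.27, exact permutation test, adjusted p = 0.36), and those of PLOD1 were 88.08, 95.81, 84.85 and 98.7 (p = 0.25, exact permutation test, adjusted p = 0.35). Those of PLOD2 were 98.1, 95.63, 97.12 and 95.61 (p = 0.49, exact permutation test, adjusted p = 0.52). For none of these 4 genes did the difference between lines pass the test. Adjusted values (Benjamini-Hochberg) were taken over all 502 genes with a peak in all 8 libraries, of which 176 (35.1%) had an unadjusted p of at most 0.05 and 0 passed after adjustment, the smallest adjusted p being 0.11. At P4HA2 and PLOD1 the gap between the PC-3 replicates was 15.09 and 14.36 points, where PC-3 replicate 1 had the shortest list. Ranks were also taken only among peaks that lay in sites of both replicates. This alternative, chosen after seeing the data, leaves 970 peaks in each PC-3 list. The PC-3 percent ranks were then 80.93 and 92.06 at P4HA2 and 79.48 and 85.88 at PLOD1, closer together than in the whole lists. Those of A549 were 64.24 and 86.85 at P4HA2 and 72.77 and 82.73 at PLOD1, further apart than in the whole lists. Why the replicates lay apart was not tested. In this alternative the unadjusted p of PLOD1 was 0.038 and its adjusted p was 0.07 (exact permutation test), and 197 of 495 genes passed after adjustment.

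Among the lysyl oxidases, which are the cross-linking enzymes, no gene had a site in all 4 lines. LOX, the founding member of the family (chr5:121398890-121414108, minus strand, canonical start 121413954), had a site in T47D only. Its scores were 76.53 and 53.3, at ranks 1727 of 3061 and 2682.5 of 2910 (tied), so that it was among the lower-scoring peaks of both lists. The site had its midpoint 559 bp downstream of the start, in exon 1, and held 14 copies of the motif over 2250 bp, the most of any site of the 9 genes. In the other 3 lines the nearest site was 2582613 bp to 3849834 bp from the gene.

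LOXL1, which acts on elastin (chr15:74218330-74244478, plus strand, canonical start 74218803), had a different site in each of 2 lines. In HCT-116 a site in exon 1, with its midpoint 836 bp downstream of the start, scored 175.65 and 101.67, at percent ranks of 75.67 and 54.99. In PC-3 a site in intron 1, at chr15:74226286-74227484 and 8082 bp downstream, scored 62.84 and 142.6, at percent ranks of 24.57 and 72.36. Neither site had a peak in any library of another line, and in T47D and A549 the nearest site was 662105 bp and 662774 bp from the gene. LOXL1 was thus not bound at 1 common place.

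LOXL2, which acts on type IV and fibrillar collagens and also occurs in the nucleus (chr8:23154410-23282841, minus strand, canonical start 23261633), had its highest-ranking peaks far from the canonical start. A region in intron 3, 58599 bp to 58692 bp downstream of the start, was a site in PC-3, A549 and HCT-116. The scores there were 183.33 and 378.54 in PC-3, at ranks 211 of 1042 and 241 of 2891, and 792.16 and 479.73 in A549, at ranks 62 of 1768 and 81 of 1270. In HCT-116 they were 480.45 and 360.83, at ranks 261 of 3790 and 186 of 1913. A549 had the highest percent ranks here, at 96.55 and 93.7, against 79.85 to 93.14 in the other libraries with a peak. By canonical starts, R3HCC1 was nearest to the midpoint of this region, at 57333 bp against 58679 bp for LOXL2. The region cannot therefore be assigned to LOXL2 by its distance to canonical starts. Other annotated transcripts of LOXL2 start nearer, at 4252 bp to 4345 bp from the midpoint of the site. The same distance was not taken for other transcripts of R3HCC1.

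The other sites of LOXL2 differed between lines. In A549 a second site lay next to the first, 57258 bp downstream of the start, with scores of 169.19 and 65.16. Another A549 site in the same intron, 47752 bp downstream, scored 324.12 and 132.42, and replicate 2 of PC-3 (218.67) and of HCT-116 (94.22) had a peak there without the other replicate. HCT-116 had a site by the canonical start itself, 338 bp downstream in intron 1, with scores of 170.63 and 98.06, and there PC-3 replicate 2 alone had a peak at 63.29. T47D had no peak within 25 kb of LOXL2, and its nearest site was 115773 bp away. Binding at LOXL2 was therefore seen in 3 of 4 lines, and at the canonical start in 1 line by both replicates.

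**Figure D4:**
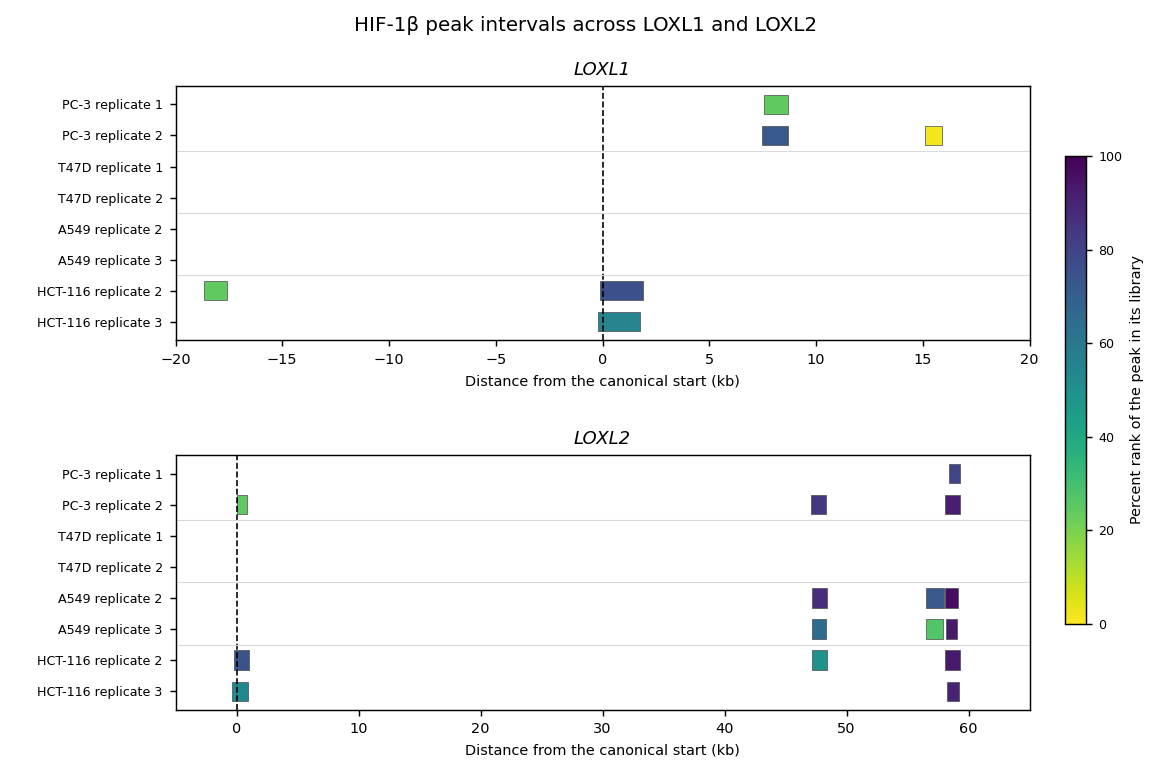
Peak intervals of each library (rows) by distance from the canonical start in kb (horizontal axis, negative values upstream, dashed line at the start) across LOXL1 and LOXL2, coloured by percent rank in the library. The PC-3 and HCT-116 peaks of LOXL1 stand at different places, and at LOXL2 the peaks of PC-3, A549 and HCT-116 line up at about 58679 bp, where T47D has none.

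The other genes of collagen biosynthesis were counted in the same way. Of 18 further collagen-modifying genes, 1 had a site in PC-3 (5.56%, against 7.07% of all genes) and 3 in T47D (16.7%, against 16.0%). In A549 the count was 1 (5.56%, against 6.01%) and in HCT-116 it was 5 (27.8%, against 14.2%). In at least 1 line, 7 of the 18 had a site, against 24.4% of all genes. These genes were shorter than the 9 enzymes, with a median length of 20627.5 bp, and the difference between the lists was not tested. P4HB, the β subunit that all 3 prolyl 4-hydroxylases share, was the only 1 of the 18 with a site in all 4 lines, against 2.46% of all genes. P4HB had the midpoint of this site 183 bp to 604 bp upstream of its start. Its highest peaks had percent ranks of 85.7 and 91.63 in PC-3, 93.79 and 95.33 in T47D, 63.97 and 60.71 in A549, and 98.47 and 95.97 in HCT-116. The 2 A549 libraries were the lowest, as at P4HA1.

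The remaining 6 had a site in 1 line each. In HCT-116 these were SERPINH1, the collagen chaperone, 76 bp from its start, the prolyl 3-hydroxylase family member P3H3, at 1031 bp, PCOLCE, an enhancer of procollagen processing, at 3201 bp, and the prolyl isomerase FKBP14, whose site was nearer to the start of PLEKHA8. In T47D the genes P3H4 and FKBP10 shared 1 site, which was nearest to the start of JUP. Of 10 collagen chain genes, 2 had a site, each in 1 line, where 24.4% of all genes had one in at least 1 line. These were COL5A1 in A549 at 16910 bp upstream and COL5A2 in PC-3 at 46342 bp upstream. None had a site in all 4 lines, where 2.46% of all genes had one. The chain genes, which encode the substrates of these enzymes, thus stood at 1 of 10 in PC-3 and in A549 and at 0 of 10 in T47D and HCT-116, set against the shares of all genes given above.

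For each gene with a site, the protein-coding genes whose percent ranks over the 8 libraries lay nearest to its own are given by the mean absolute difference, as a description. P4HA1 was nearest to STC2 (0.453 points) and to C4orf3 and FABP2, which share their peaks (0.549). P4HA2 was nearest to PLOD1 and KIAA2013, through the site these share (1.92), and then to ENSG00000251357 (2.169). PLOD1 was nearest to MIF, SLC2A11 and ENSG00000251357, again through the same peaks (0.962), and PLOD2 lay near SEMA4B (1.51) and GBE1 (1.62). Some of these neighbours were therefore the same peaks under more than 1 gene name, and for PLOD1 all those named were. Whether these distances were smaller than those of other genes of high rank was not tested.

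The lysyl oxidases and PLOD3 were matched at other distances. LOXL2 lay near PTPRB and PTPRR (1.84), and LOXL1 was nearest to ARHGAP39, CIDEA and TUBB6 (4.86). LOX was nearest to DCUN1D5 and DYNC2H1 (0.424) and to CD36 (0.54), since most values were 0 in all of them. PLOD3 had no close match, with NACC2 and TMEM250 at 10.3 points and RSRC2 at 10.6.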

How the data were processed

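HIF-1β peaks were analysed in 8 libraries, 2 replicates in each of 4 lines, grouped by the cell line given in the labels (PC-3 and T47D numbered 1 and 2, A549 and HCT-116 numbered 2 and 3). Per the study's methods and the submitters' processing notes, the authors aligned reads to GRCh37 (hg19; Trim Galore 0.3.3, BWA 0.7.5a-r405, SAMtools 0.1.19, Picard 1.106, bedtools 2.17.0) and considered only peaks found by both MACS and T-PIC. Whether the deposited lists had passed both callers is not given in the sources used here. The deposited score of each peak had no header. Its lowest value was 50 to 50.09 in each list, and some lists reached 3100 or more, so the scale was not known and the score was used as a rank within the library. Read depth was not given.

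Gene spans came from GENCODE release 44 lifted to GRCh37 (20162 protein-coding genes, of which 19881 had a marked canonical transcript; for the others the gene end was used as the start). Sites, windows, ranks and motifs were computed with Python 3.11.15, NumPy 2.4.6, pandas 2.3.3 and pysam 0.24.0. The search for sites was tested on simulated data, where 200 of 200 planted genes were found in each line. Planted peaks were in both replicates, centred about 200 bp or less from a start, so distal sites were not tried. The members and gene lists were chosen with earlier results of these data known, so counts of members got no test. The p-values of the exact permutation test were adjusted over all genes with a peak in all 8 libraries, in place of the members alone as first planned. The genes named are the 9 members, the nearest start to each peak, listed genes with a site, and the 3 genes nearest in rank to each member, leaving out genes that share its peaks; some of these are not reported here. RefSeq tables given were of another build and were not used for coordinates.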

Additional observations from a re-analysis of the deposited data

How the results depend on the processing

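Of 170 recomputed values under other settings, 159 kept their side of the threshold, stayed within 1.5 times the first count or, for the motif share, stayed within its exact binomial interval (from 88.06%). Leaving out a library cannot change the site counts of the other lines, so part of the 159 was fixed in advance. The number of lines with a site at each gene was not among the 170. With 2 kb on either side of the start, 3 genes had a site in PC-3 (6 in the wider window). For the further collagen-modifying genes with a site in at least 1 line (7), the count was 4 within the gene body, 4 within 2 kb of the start and 3 with the higher-scoring 50% of each list. For the collagen chains (2), it was 0 within the gene body, 1 at 10 kb, 5 at 50 kb, 0 within 2 kb of the start, 0 with the higher-scoring 50%, and 1 with the canonical transcript in place of the gene span, a setting chosen after seeing the data. The motif was in 79.31% of the members' sites when only the central 200 bp was searched (100% of whole sites). PLOD1 had a site in 0 lines within the gene body or within 2 kb of the start, and with the higher-scoring 50% of each list PLOD3 and LOXL1 kept a site in 1 line and LOX in 0. What lay behind these changes was not tested.

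No setting gave an adjusted p of at most 0.05 for a member. Leaving out each library in turn, in which case the lone replicate adds nothing to the statistic, the adjusted p ranged from 0.18 to 0.35 for P4HA1, 0.22 to 0.56 for P4HA2, 0.1 to 0.48 for PLOD1 and 0.28 to 0.77 for PLOD2. The unadjusted p (exact permutation test) fell to 0.029 for PLOD1 without PC-3 replicate 1, to 0.0095 for PLOD1 without PC-3 replicate 2 and to 0.019 for PLOD2 without HCT-116 replicate 2. No paired analysis was possible because the counts come from no test and the 4 lines compared in the test had only replicate number 2 in common. RefSeq gene spans were not run, since no RefSeq annotation of this build was used here. Peak lists limit what can be said of weak binding, and 2 libraries a line do not allow a pair of lines to be tested alone.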

Other observations

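Peaks near these genes that were called in only 1 replicate were left out of the sites above. In HCT-116 replicate 2, the longest list, single peaks scored 52.65 at chr5:131629032-131630320, within the P4HA2 gene span and 411 bp from the start of SLC22A4, 70.11 at chr1:11967978-11969398 upstream of PLOD1, and 65.84 at 18144 bp upstream of LOXL1. In PC-3 replicate 2 a single peak in intron 1 of LOXL1, 15505 bp downstream of the start, scored 50.73 and was the only region of the 17 without the motif. Among the further collagen-modifying genes and collagen chains with no site in any line, P3H2 in PC-3, MIA3 and LOXL3 in T47D and COL4A2 in T47D had a peak in 1 replicate only, at percent ranks of 51.82, 38.97, 27.56 and 39.05.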
